A study of Mus musculus with 12 samples.

Results

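The genes described here are 7 that encode parts of the complement system and that mesenchymal cells can express: C3, C4b, Cfb, Cfd, Serping1, Cd55 and Masp1. They were chosen by gene symbol and are 7 of the 52636 gene rows in the expression tables, with 1 row each. Of the 7, 6 had values above 0 and averaged 1 TPM or more in both cell types, the level required for testing, and Cfd was listed at 0 in all 12 libraries. TPM, transcripts per 1000000, divides the reads of a gene by its transcript length and scales every library to the same total, so that levels of different genes can be compared within a library.

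The data are bulk RNA-seq of cultured mouse cells, which measures the pooled RNA of a whole culture, in 4 groups of 3 libraries. Smooth muscle cells (SMCs) were commercial C57BL/6 primary cells, called airway SMCs in the sample titles and tracheal in the source and tissue labels, with no age given. PDGFR-β+ cells came from lungs of C57BL/6 mice aged 12 weeks and, per the study's methods, were sorted as Zs+ cells, the reporter having been switched on by tamoxifen in Pdgfrb-CreERT2, ROSA26R(Zs/+) animals. In each cell type 1 group received scrambled control RNA (Scr; genotype label WT) and the other a small interfering RNA against Klf4 (siKlf4; genotype label Klf4 KD). The study's supplement calls the 3 libraries of a group independent experiments, and neither it nor the labels say whether these were separate animals or cell lots, so p-values measure the spread between these libraries.

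Complement is a cascade of plasma proteases that tags surfaces with fragments of C3. The classical pathway starts with the proteases C1r and C1s and the lectin pathway with MASP proteases, and both lead to cleavage of C4 and C2. The alternative pathway amplifies the signal through factor B (Cfb), which binds C3b and is cut by factor D (Cfd). Serping1 encodes C1 inhibitor, which blocks C1r, C1s and MASP-1, and Cd55 encodes decay-accelerating factor, a membrane protein that takes C3 convertases apart. The liver makes most plasma complement, and fibroblasts and SMCs are among the cells that make it locally, where interferons and inflammatory cytokines raise several of these genes.

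Klf4, the targeted gene, was measured at 89.6, 96.3 and 95.03 TPM in Scr SMCs and at 26.5, 16.3 and 18.8 TPM with siKlf4. In PDGFR-β+ cells it was at 144, 146 and 134 TPM with Scr and at 12.3, 13.8 and 12.8 TPM with siKlf4. The transcript therefore fell in both, to 21.9% and 9.16% of the Scr mean in SMCs and PDGFR-β+ cells. Each library summed to 1000000 TPM with 20590 to 21780 genes above 0, and the TPM tables keep no depth, so precision rests on the 3 libraries per group. Contractile markers were not higher in the cells labelled SMC: 8 smooth muscle genes summed to 1495 to 2284 TPM in Scr SMCs and to 5551 to 6408 TPM in Scr PDGFR-β+ cells, and Myocd was under 1 TPM in both. The 10 mural and fibroblast markers summed to 3636 to 3907 and 3962 to 4678 TPM, and 8 epithelial markers to at most 1.37 TPM. Of 8 macrophage markers, Adgre1, Marco, Mrc1 and Ptprc were at most 0.320 TPM in any library, and the others were measured: Cd14 was at 39.8 to 42.3 TPM in Scr SMCs and 6.63 to 7.04 TPM in Scr PDGFR-β+ cells, and Lyz2 at 1.45 to 2.93 and 17.3 to 20.3 TPM. Cd68 was at 2.30 to 4.70 and 6.04 to 8.69 TPM, and Csf1r at 0.722 to 0.938 and 1.60 to 2.995 TPM, in the same order.

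Upstream sequence is shown for C3 and Cd55, the genes of the set whose levels fell with siKlf4 in both cell types and for which a promoter was at hand. Each run holds the 250 bases before the start site, 5′ to 3′ on the gene's own strand, from RefSeq on GRCm38.p6. C3 lies on the reverse strand of chromosome 17 with the shown bases at chr17:57228137-57228386, and Cd55 on the reverse strand of chromosome 1 with the shown bases at chr1:130462745-130462994. Capitals mark CACCC, the core of KLF sites, on either strand, and TTNNGNAA, a C/EBP-like pattern.
C3 promoter: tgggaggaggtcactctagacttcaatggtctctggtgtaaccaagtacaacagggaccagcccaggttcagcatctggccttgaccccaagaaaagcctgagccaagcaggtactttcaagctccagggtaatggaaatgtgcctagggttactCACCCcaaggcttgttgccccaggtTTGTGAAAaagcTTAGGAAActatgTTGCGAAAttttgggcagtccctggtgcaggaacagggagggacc
Cd55 promoter: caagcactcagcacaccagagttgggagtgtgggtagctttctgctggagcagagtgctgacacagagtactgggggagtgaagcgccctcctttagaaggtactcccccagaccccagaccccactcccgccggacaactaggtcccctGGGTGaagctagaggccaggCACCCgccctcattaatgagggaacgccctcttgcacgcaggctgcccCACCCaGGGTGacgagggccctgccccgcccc
CACCC occurred once in the C3 window and 4 times in the Cd55 window, and 52.0% of 32851 mouse promoters of this length hold it. TTNNGNAA occurred 3 times in the C3 window, at 70, 58 and 45 bases before the start, and not in the Cd55 window, against 36.8% of promoters with at least 1. The interferon-response pattern TTCNNNGAA (GAS) and the κB pattern were not in either window, against 7.02% and 7.25% of promoters. A match is a run of letters and not a measured site. Of the 7 genes, 3 (C3, Cd55 and Cfd) had a promoter in the table.

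C3, the central component whose cleavage every pathway leads to, lies at chr17:57203970-57228136 (gene span, GENCODE M21, GRCm38). In SMCs it was at 2444, 1988 and 1821 TPM with Scr and at 1105, 989 and 991 TPM with siKlf4. Every siKlf4 library lay below every Scr library, and the mean fell from 2084 ± 322 to 1029 ± 66.1 TPM (SD, n = 3), a drop of 50.6%. In PDGFR-β+ cells C3 was at 50.4, 27.9 and 50.9 TPM with Scr and at 15.9, 9.31 and 10.5 TPM with siKlf4. The groups again did not overlap, and the mean was 72.4% lower. The log2 fold change of TPM + 1 was -1.01 (SE 0.116, adjusted p = 0.00199) in SMCs and -1.76 (SE 0.268, adjusted p = 0.00197) in PDGFR-β+ cells by limma with Benjamini-Hochberg adjustment. In PDGFR-β+ cells 102 of the 13694 genes tested had a lower value. The fall was smaller in SMCs by 0.75 on the log2 scale, with a 95% interval of 0.04 to 1.45, which did not pass (adjusted p = 0.0976). It passed without Scr library 2 of the PDGFR-β+ cells (1.03, adjusted p = 0.0107), without siKlf4 library 1 (0.96, adjusted p = 0.0356) and after quantile normalization (adjusted p = 0.0325).

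C4b encodes the C4 protein that is cleaved to start the classical and lectin C3 convertase, and lies at chr17:34728380-34743882. With Scr the SMC values were 95.7, 95.6 and 108 TPM, and with siKlf4 they were 63.2, 56.4 and 58.6 TPM. All siKlf4 values were below all Scr values, with a log2 fold change of -0.74 (SE 0.0795, adjusted p = 0.00166) and a mean 40.4% lower. Among PDGFR-β+ cells the gene was at 13.9, 8.83 and 17.2 TPM with Scr and at 13.1, 8.39 and 6.59 TPM with siKlf4. Those groups overlapped, and the log2 fold change of -0.47 had a 95% interval of -1.13 to 0.19 (adjusted p = 0.224), which holds both no change and the size seen in SMCs. Between the cell types, the effects differed by -0.27, with an interval of -0.98 to 0.44 (adjusted p = 0.560).

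C4b has a close copy, C4a, whose reads can be hard to tell from its own. The longest transcripts, C4b-201 of 5379 bases and C4a-207 of 5371 bases, were identical at 96.1% of aligned bases, and 16.5% of all windows of 100 bases in C4b-201 also occurred in C4a-207. The 100 coding bases in which the copies differ most, positions 1153 to 1252 of the 5214 coding bases of C4b, are shown to let the copies be compared, with the 15 differing bases in capitals.
C4b: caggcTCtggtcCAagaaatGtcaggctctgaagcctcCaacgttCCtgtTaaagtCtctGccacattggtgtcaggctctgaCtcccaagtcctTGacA
C4a: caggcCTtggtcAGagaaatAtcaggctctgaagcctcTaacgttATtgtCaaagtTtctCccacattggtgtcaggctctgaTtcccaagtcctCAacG
C4a was at 1.65 to 2.58 TPM in SMCs and at 0.560 to 2.11 TPM in PDGFR-β+ cells, and adding it to C4b left the C4b calls as they were. Cd55 has a copy too, Cd55b, identical at 92.3% of aligned bases, which was listed at 0 in all 12 libraries.

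Cfb, factor B of the alternative pathway, passed the threshold in opposite directions in the cell types. It lies at chr17:34856374-34862518, next to C2 in the class III region of the MHC. In SMCs it was at 177, 176 and 188 TPM with Scr and at 141, 98.8 and 125 TPM with siKlf4, so that it fell with no overlap of the groups. In PDGFR-β+ cells it was at 3.91, 2.35 and 4.40 TPM with Scr and at 20.0, 13.8 and 10.9 TPM with siKlf4. There it rose 4.20-fold, and the lowest siKlf4 library was above the highest Scr library. The log2 fold change was -0.58 (SE 0.125, adjusted p = 0.0150) in SMCs and 1.79 (SE 0.250, adjusted p = 0.00130) in PDGFR-β+ cells. The difference, tested as an interaction, was -2.38 (95% interval -3.04 to -1.71, adjusted p = 0.000161), and 70 of 13032 genes had a lower one. The fall in SMCs missed the threshold when all 12 libraries shared 1 fit (adjusted p = 0.0572). A predicted gene that overlaps Cfb on the same strand, Gm20547, was at most 0.0673 TPM in any library.

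The ratio of Cfb to C3 shows how far the pair moved apart. Cfb was at 0.0776 to 0.0864 of the C3 level in Scr PDGFR-β+ cells and at 1.04 to 1.49 times it with siKlf4. In SMCs the ratio was 0.0723 to 0.103 with Scr and 0.0999 to 0.127 with siKlf4, ranges that overlapped. Factor B was thus the scarcer transcript of the pair in every library except the 3 siKlf4 libraries of PDGFR-β+ cells. Cfd, the protease that cuts factor B and a product mainly of adipocytes, was listed at 0 throughout (chr10:79890853-79892655), so no fold change was computed for it. Of 7 adipocyte markers, 6 were under 1 TPM on average in both cell types, and Fabp4 accounted for the list.

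Masp1, which encodes MASP-1 of the lectin pathway and by alternative splicing MASP-3, moved against the other genes in SMCs. It lies at chr16:23449417-23520815. In SMCs it was at 54.1, 52.1 and 54.1 TPM with Scr and rose to 91.6, 83.7 and 87.7 TPM with siKlf4. The lowest siKlf4 library lay well above the highest Scr library, and the mean was 1.64-fold higher (log2 fold change 0.70, SE 0.0657, adjusted p = 0.00114). In PDGFR-β+ cells it was at 126, 116 and 118 TPM with Scr and at 138, 130 and 136 TPM with siKlf4. These groups also did not overlap, but the log2 fold change of 0.17 (SE 0.0658) did not pass (adjusted p = 0.0791; 0.0410 when all 12 libraries shared 1 fit). The effect was larger in SMCs by 0.54 (95% interval 0.35 to 0.72, adjusted p = 0.000652). Gene values cannot tell the MASP-1 and MASP-3 transcripts apart.

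Masp1 overlaps Rtp4, an interferon-inducible gene on the opposite strand, by 525 bases. Rtp4 was at 12.2 to 18.5 TPM in Scr and 36.9 to 45.4 TPM in siKlf4 SMCs, and at 3.29 to 8.38 and 64.8 to 77.6 TPM in the PDGFR-β+ groups. Rtp4 thus stood higher with siKlf4 in both cell types and by the wider margin in PDGFR-β+ cells, where the Masp1 difference was the smaller. Per the study's methods the libraries were strand-specific (dUTP), but whether strand was used in counting is not given in the sources used here, and the part of Rtp4 reads in the Masp1 values was not tested.

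Serping1 encodes C1 inhibitor and lies at chr2:84765387-84775444. It was among the most abundant transcripts of the SMCs, at 1666, 1653 and 1532 TPM with Scr, and fell to 981, 912 and 869 TPM with siKlf4. No siKlf4 library reached the Scr range, and the mean was 43.0% lower (log2 fold change -0.81, SE 0.0718, adjusted p = 0.000997). In PDGFR-β+ cells it was at 72.8, 41.3 and 88.7 TPM with Scr and at 64.3, 42.1 and 41.0 TPM with siKlf4. The groups overlapped, with Scr library 2 at the level of the lower siKlf4 libraries, and the log2 fold change of -0.41 (95% interval -1.09 to 0.26) did not pass (adjusted p = 0.287). Without that library it was -0.73 (adjusted p = 0.0347). The SMC effect minus the PDGFR-β+ effect was -0.40, with an interval of -1.13 to 0.33 (adjusted p = 0.385).

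Cd55, the only membrane protein of the set, lies at chr1:130439027-130462744. The SMC libraries held it at 12.4, 14.0 and 14.1 TPM with Scr and at 6.80, 10.7 and 9.54 TPM with siKlf4. The PDGFR-β+ libraries held it at 38.9, 30.2 and 42.4 TPM with Scr and at 27.3, 29.1 and 26.1 TPM with siKlf4. Neither pair of groups overlapped, but the gap in PDGFR-β+ cells was narrow, between 29.1 and 30.2 TPM. The log2 fold change was -0.55 (SE 0.161, adjusted p = 0.0404) in SMCs and -0.41 (SE 0.128, adjusted p = 0.0379) in PDGFR-β+ cells. Both calls were close to the threshold: leaving out single libraries kept 1 of 6 in each cell type, with adjusted p from 0.0390 to 0.110 in SMCs and from 0.00467 to 0.107 in PDGFR-β+ cells. Those that kept it were the refits without siKlf4 library 2 of the SMCs and without Scr library 2 of the PDGFR-β+ cells. The effects differed by -0.15, with an interval of -0.62 to 0.33 (adjusted p = 0.640).

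**Figure D1:**
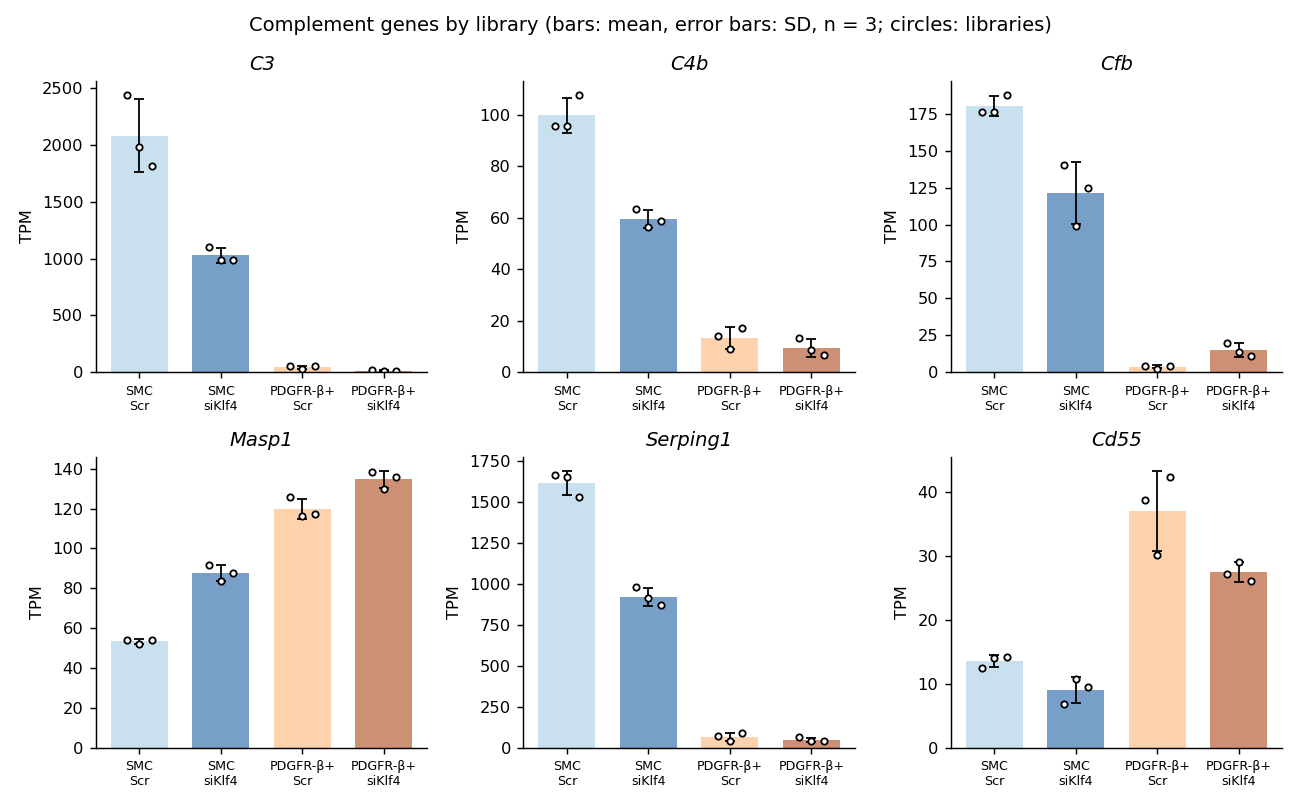
TPM (linear axes from 0, a separate scale per gene) of 6 complement genes in the 4 groups; bars are means of 3 libraries, error bars SD and circles single libraries. C3, C4b, Cfb and Serping1 stand far higher in SMCs, Masp1 and Cd55 higher in PDGFR-β+ cells, and Cfb is the gene that falls in SMCs and rises in PDGFR-β+ cells.

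Taken by count, all 6 tested genes passed the threshold in SMCs, 5 lower and 1 (Masp1) higher. Among all 13709 genes tested there, 28.5% passed, 12.9% lower and 15.6% higher. The median log2 fold change of the 6 was -0.66, beside 0.02 over all genes. In PDGFR-β+ cells 3 of 6 passed, C3 and Cd55 lower and Cfb higher, where 40.6% of 13694 genes passed, 15.3% lower and 25.3% higher. Taken in either direction, a share of 3 in 6 stands near the background in that cell type. The median of the 6 was -0.41, beside 0.10 over all genes. The groups did not overlap for 6 of 6 genes in SMCs (47.1% of all genes) and for 4 of 6 in PDGFR-β+ cells (53.8%).

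The difference between the cell types passed for 2 of the 6 genes, Cfb with the lower and Masp1 with the higher effect in SMCs, where 33% of 13032 genes passed, 18.5% lower and 14.5% higher. The scale of the PDGFR-β+ comparison depends on the scaling of the libraries. Median-ratio scaling moved the median change of all genes in PDGFR-β+ cells by -0.10 and the calls from 3461 higher and 2098 lower to 2639 higher and 2977 lower. For the interaction the split went from 1886 higher and 2411 lower to 2412 higher and 2000 lower. Under that scaling the changes in PDGFR-β+ cells were -1.86 for C3, -0.51 for Cd55 and 1.70 for Cfb, all still past the threshold, and 0.06 for Masp1. Library 2 of the Scr PDGFR-β+ cells had the lowest value of its group for all 6 genes.

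**Figure D2:**
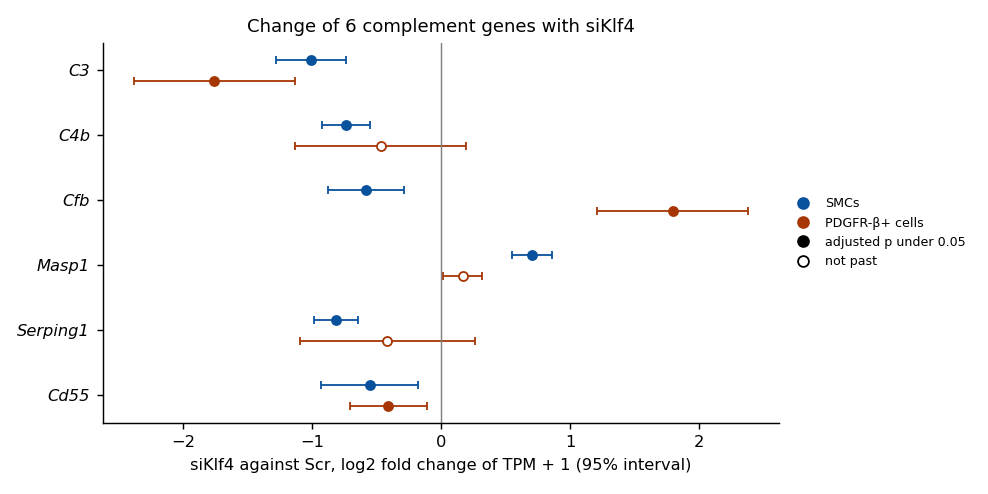
log2 fold change of TPM + 1, siKlf4 against Scr, for 6 complement genes, with the 95% interval of each fit, unadjusted for the number of genes; filled points passed an adjusted p of 0.05 and open points did not. Cfb lies at -0.58 in SMCs and 1.79 in PDGFR-β+ cells, and the other genes lie on the same side of 0 in both.

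Without knockdown, the cell types differed in all 6 genes, against 52.8% of 13874 genes (26.7% higher and 26% lower in SMCs). Of these, 4 were higher in Scr SMCs: Cfb 50.7-fold, C3 48.4-fold, Serping1 23.9-fold and C4b 7.50-fold by the ratio of mean TPM. Their log2 differences of TPM + 1 were 5.34 (adjusted p = 4.5e-09), 5.60 (4.9e-09), 4.63 (2.85e-08) and 2.86 (1.13e-06). Another 2 were higher in Scr PDGFR-β+ cells, Cd55 2.75-fold and Masp1 2.24-fold, with log2 differences of -1.38 (adjusted p = 1.52e-05) and -1.15 (3.33e-08). Cell type, tissue source, supplier, growth medium before transfection and expression table go together in this contrast and cannot be told apart. Per the study's methods, PDGFR-β+ cells were grown in low-glucose DMEM and SMCs in SMC medium with EGF and FGF. After transfection both were kept in SMC medium. In bulk RNA, fewer cells that express a gene and less of its RNA per cell cannot be told apart either.

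The order of the genes also differed. In Scr SMCs it was C3, Serping1, Cfb, C4b, Masp1 and Cd55, and no neighbours in that order overlapped. C3 ranked 38 and Serping1 58 from the top among 23998 genes with a value above 0. In Scr PDGFR-β+ cells the order was Masp1, Serping1, C3, Cd55, C4b and Cfb, where Serping1, C3 and Cd55 overlapped with their neighbours and the rest did not. Masp1 ranked 1418, Serping1 2680 and Cfb 11194 among 24211 genes. The ratio of Serping1 to Masp1 was 28.3 to 31.7 in Scr SMCs and 9.91 to 10.9 with siKlf4. In PDGFR-β+ cells the same ratio was 0.355 to 0.755 with Scr and 0.302 to 0.465 with siKlf4, ranges that overlapped.

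**Figure D3:**
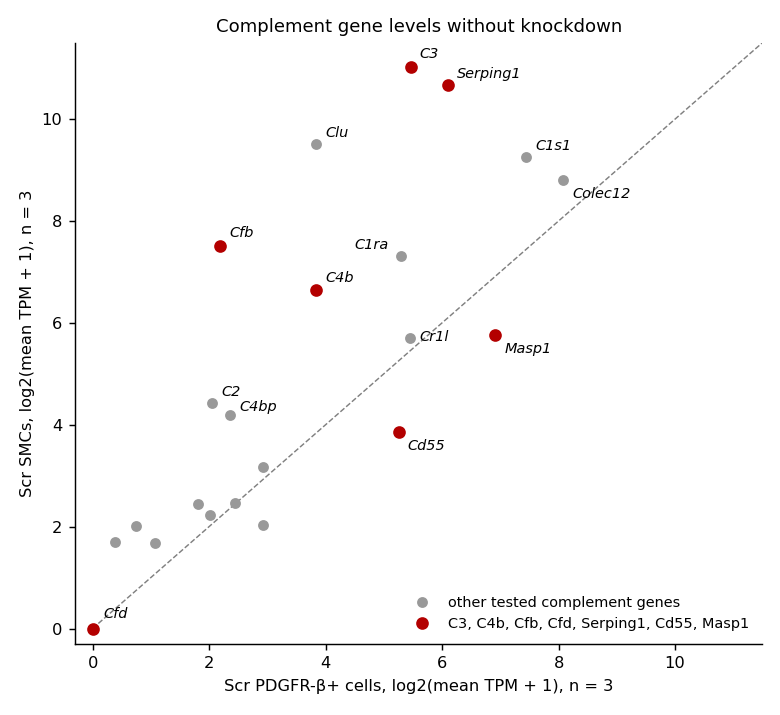
Mean level of complement genes in the 3 Scr libraries of each cell type, as log2(mean TPM + 1), with PDGFR-β+ cells on the horizontal and SMCs on the vertical axis; red points are the 7 genes, grey points the other tested complement genes and the dashed line marks equal levels. C3, Serping1, Cfb and C4b lie above the line, Masp1 and Cd55 below it, and Cfd at 0.

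Other genes of the cascade were read from a list of 52. In SMCs 15 had a mean of at least 1 TPM, of which 9 passed the threshold, all lower, and 0 passed as higher, where 12.9% of all genes passed as lower. The estimate was below 0 in 15 of 15, with a median of -0.73. These SMC counts include Cfhr2, which reached the minimum mean of 1 TPM only through the Scr libraries. In PDGFR-β+ cells 13 were tested and 3 passed, again all lower, with a median of -0.23 and estimates below 0 in 9 of 13. That share lies below the 40.6% of all genes that passed in either direction, beside 15.3% that passed as lower. Among the 3 was Cd59b, which reached the minimum mean only through the Scr libraries. The groups did not overlap for 12 of the 15 in SMCs, against 47.1% of all genes, and for 3 of the 13 in PDGFR-β+ cells, below the 53.8% of all genes.

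The proteases that start the classical pathway were among those that fell in SMCs. C1s1 went from 704, 575 and 553 to 323, 267 and 247 TPM (log2 fold change -1.13, adjusted p = 0.00199), and C1ra from 188, 145 and 142 to 90.4, 62.9 and 63.6 TPM (-1.13, adjusted p = 0.00451). Their copies C1rb and C1s2, at 1.05 to 3.69 TPM, fell by 0.77 and 0.88 on the log2 scale (adjusted p = 0.00846 and 0.00588), and reads shared between copies could not be separated. In PDGFR-β+ cells C1ra was at 40.7, 29.4 and 45.3 TPM with Scr and at 56.1, 38.1 and 43.4 TPM with siKlf4. C1s1 there was at 188, 129 and 201 TPM with Scr and at 161, 111 and 129 TPM with siKlf4. None of the 4 passed, with changes of 0.25 for C1ra, 0.30 for C1rb, -0.35 for C1s1 and -0.21 for C1s2. C1s1 passed there without Scr library 2 (-0.55, adjusted p = 0.0314) and with a replicate block (adjusted p = 0.0454). The interaction passed for C1ra (-1.38, adjusted p = 0.00312), C1rb (-1.08, adjusted p = 0.00946) and C1s1 (-0.77, adjusted p = 0.0366). The last was kept in 5 of 12 refits that left out a library, with adjusted p up to 0.0837, and was lost under median-ratio scaling. The recognition subunits C1qa, C1qb and C1qc, made by macrophages, were at most 0.357 TPM in any library.

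C2, the neighbour and relative of Cfb that joins C4b in the classical convertase, had a like pattern. It fell in SMCs from 24.9, 19.9 and 16.7 to 11.2, 11.8 and 11.1 TPM (log2 fold change -0.78, adjusted p = 0.00850). In PDGFR-β+ cells it was at 3.29, 2.97 and 3.16 TPM with Scr and at 7.36, 6.28 and 3.13 TPM with siKlf4, where 2 of 3 libraries were above the Scr range and 1 was within it. That change, 0.61, did not pass (adjusted p = 0.0913) but did without siKlf4 library 3 (0.91, adjusted p = 0.00475). The interaction passed at -1.39 (adjusted p = 0.00557). Zbtb12, on the opposite strand, overlaps the C2 gene by 17385 bases, and its part in the C2 values was not tested.

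Fluid-phase regulators passed as lower in SMCs in 3 of 3 tested, where 12.9% of all genes did. Clu, clusterin, went from 815, 725 and 646 to 446, 442 and 360 TPM (log2 fold change -0.81, adjusted p = 0.00396). C4bp, which binds C4b, fell in both cell types, by 0.72 in SMCs (adjusted p = 0.00550) and by 0.67 in PDGFR-β+ cells (adjusted p = 0.0375) on the log2 scale. The second of these calls was kept in 1 of 6 refits that left out a library, with adjusted p from 0.00596 to 0.116. Cfhr2 (-0.76) and the terminal component C8g (-0.73) stood at 0.510 to 3.70 TPM in SMCs. C8g passed with an adjusted p of 0.0483, in 1 of 6 such refits. Cfhr2 averaged 2.27 TPM with Scr and 0.954 TPM with siKlf4. It reached the minimum mean of 1 TPM only through the Scr libraries, so no p-value is given for it. In PDGFR-β+ cells Clu was at 14.1, 11.1 and 14.7 TPM with Scr and at 16.7, 8.74 and 8.57 TPM with siKlf4, with overlapping groups, and did not pass (adjusted p = 0.420).

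Of 3 membrane regulators tested, none passed in SMCs and 2 passed as lower in PDGFR-β+ cells, where 15.3% of all genes did. Cr1l, which encodes Crry, a rodent inhibitor of C3 convertases, went from 43.6, 38.1 and 46.3 to 26.7, 26.6 and 23.3 TPM in PDGFR-β+ cells (log2 fold change -0.72, adjusted p = 0.00129). In SMCs it was at 50.4, 53.9 and 49.4 TPM with Scr and at 48.8, 45.2 and 42.5 TPM with siKlf4 (-0.17, adjusted p = 0.155), and the interaction passed at 0.55 (adjusted p = 0.00645). Cd59b, which blocks the membrane attack complex, was at 1.64, 3.70 and 2.21 TPM in Scr PDGFR-β+ cells. With siKlf4 it was at 0, 0.307 and 0.685 TPM (-1.39). It thus reached the minimum mean of 1 TPM only through the Scr libraries, so no p-value is given for this change. Its copy Cd59a was more abundant, at 6.69, 5.93 and 7.20 TPM with Scr and at 4.58, 6.23 and 5.46 TPM with siKlf4. Cd59a did not pass there (-0.25, adjusted p = 0.175) or in SMCs (-0.14, adjusted p = 0.618). The 9 receptor genes, C3ar1 and C5ar1 among them, were under 1 TPM on average in both cell types and were not tested.

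**Figure D4:**
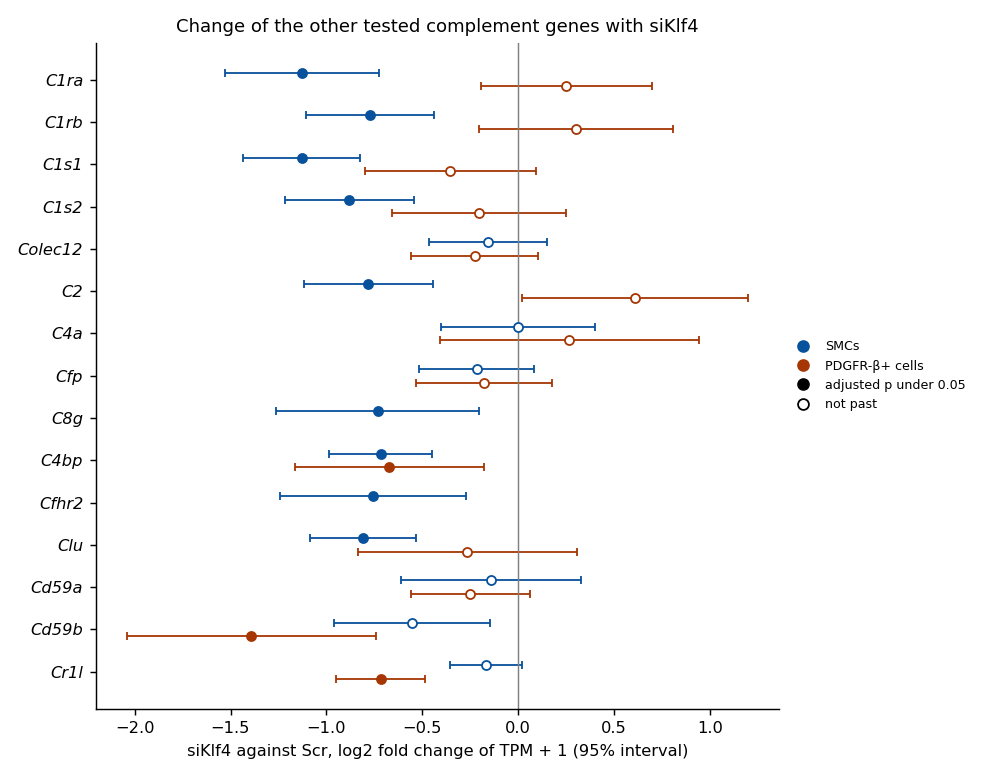
log2 fold change of TPM + 1, siKlf4 against Scr, for the other complement genes tested, with unadjusted 95% intervals; filled points passed an adjusted p of 0.05. In SMCs (blue) 9 of 15 passed and all points lie below 0, and in PDGFR-β+ cells (brown) only C4bp, Cd59b and Cr1l are filled. Cfhr2 in SMCs and Cd59b in PDGFR-β+ cells reached the minimum mean for testing only through the Scr libraries.

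Genes known to induce complement transcription were read beside Cfb. In PDGFR-β+ cells Ifnb1, interferon β, was listed at 0 in the 3 Scr libraries and was at 5.19, 3.71 and 3.16 TPM with siKlf4. It was listed at 0 in all SMC libraries. Ifnb1 reached the minimum mean of 1 TPM only through the siKlf4 PDGFR-β+ libraries, so no p-value is given. Stat2, a transducer of interferon signals, went from 37.2, 37.0 and 47.5 to 206, 221 and 203 TPM in PDGFR-β+ cells and from 83.1, 79.8 and 92.8 to 156, 125 and 115 TPM in SMCs. It rose in both (log2 fold change 2.35, adjusted p = 1.06e-05, and 0.61, adjusted p = 0.0117), and more in PDGFR-β+ cells (interaction -1.74, adjusted p = 3.34e-05). Irf9, its partner in the interferon-stimulated factor, likewise rose by 1.43 and 0.48 (interaction -0.94, adjusted p = 0.00268).

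Irf1, a transcription factor induced by interferons, went from 22.7, 19.3 and 20.7 to 64.5, 61.4 and 32.5 TPM in PDGFR-β+ cells (log2 fold change 1.24, adjusted p = 0.00586). In SMCs it was at 32.6, 33.0 and 30.3 TPM with Scr and at 17.6, 33.2 and 27.3 TPM with siKlf4, with overlapping groups, and the interaction passed at -1.57 (adjusted p = 0.00563). Of 12 transcription factors on the list, 5 rose and 0 fell among 11 tested in PDGFR-β+ cells, and 3 rose and 1 fell among 12 in SMCs. Taken in either direction, these shares stand near the 40.6% and 28.5% of all genes that passed. By direction, 25.3% of all genes rose and 15.3% fell in PDGFR-β+ cells, and 15.6% rose and 12.9% fell in SMCs. Stat3 (0.46, adjusted p = 0.00548) and Nfkb1 (0.55, adjusted p = 0.00145) rose in PDGFR-β+ cells, and the interaction passed for Stat3 (-0.67, adjusted p = 0.00101). In SMCs Rela rose by 0.28 (adjusted p = 0.0344) and Cebpa fell by 0.44 (adjusted p = 0.0442), calls kept in 1 and 0 of 6 refits that left out a library. The cytokine gene Lif rose in both, by 1.72 in SMCs (adjusted p = 0.0216, kept in 3 of 6 such refits) and 0.82 in PDGFR-β+ cells (adjusted p = 0.000732), and Il1a, Il1b, Tnf, Ifng and Osm were listed at 0 throughout. The part of these factors in the complement changes was not tested.

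**Figure D5:**
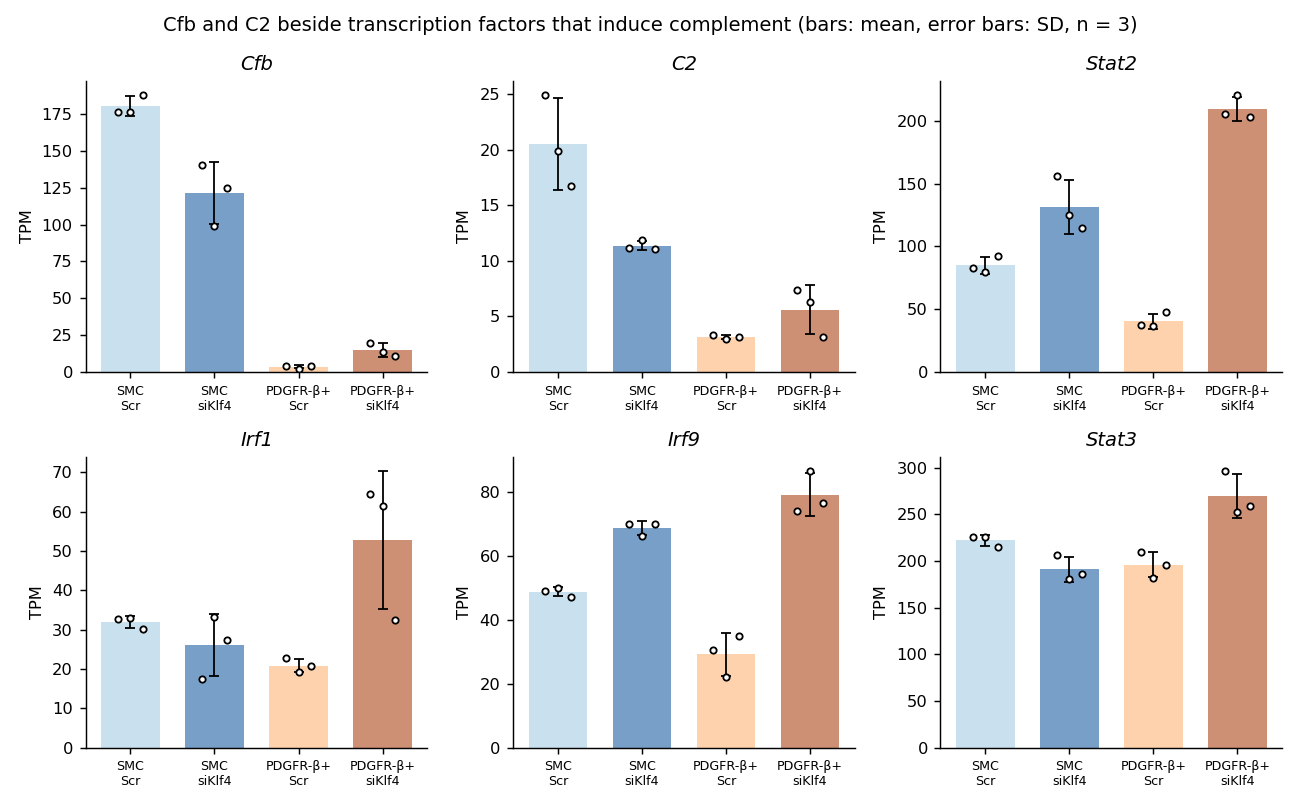
TPM (linear axes from 0, a separate scale per gene) of Cfb, C2, 3 interferon-pathway genes and Stat3 in the 4 groups; bars are means of 3 libraries, error bars SD and circles single libraries. Stat2 and Irf9 rise in both cell types and most in PDGFR-β+ cells, while Cfb falls in SMCs and rises in PDGFR-β+ cells.

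Other features of the cultures moved with the same comparison. In SMCs, where complement genes fell, 8 contractile genes summed to 1495 to 2284 TPM with Scr and 3411 to 4174 TPM with siKlf4, and 6 of 7 tested rose, where 15.6% of all genes did. The macrophage list went from 45.6 to 49.6 down to 25.1 to 29.8 TPM, most of it Cd14, with Adgre1 and Marco at 0. The adipocyte list went from 278 to 358 down to 128 to 152 TPM, nearly all of it Fabp4, with Cidec and Lep at 0. In PDGFR-β+ cells the macrophage list was at 35.7 to 37.2 and 29.1 to 34.0 TPM and the adipocyte list at 20.4 to 25.0 and 29.2 to 35.4 TPM, with Lyz2 and Csf1r lower and Cd14 higher under siKlf4. Contractile genes there summed to 4708 to 5003 TPM under siKlf4, most of it Acta2, with 3 of 7 tested higher (Lmod1, Myh11 and Smtn) and 3 lower (Acta2, Tagln and Des). Mural and fibroblast genes fell in 5 of 9 tested in each cell type, where 12.9% of all genes fell in SMCs and 15.3% in PDGFR-β+ cells. Of the 7 endothelial markers, Kdr rose in SMCs and Tek in PDGFR-β+ cells, with Tie1 at 0 in every library and Pecam1, Cdh5 and Vwf under 0.5 TPM. Mesothelial markers fell in 4 of 4 tested in PDGFR-β+ cells, and in SMCs 2 fell and 1 rose. Their part in the complement changes was not tested.

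The genes with the most similar patterns were found by Pearson correlation of log2(TPM + 1) over the 12 libraries among 11611 genes, as a description that the gap between the cell types dominates. For C3 they were H6pd (r = 0.998), Dgka (0.996) and Ism1 (0.996), and for C4b Sfrp1 (0.994) and Serping1 (0.993). Serping1 was most like Cyp7b1 (0.999), Dpep1 (0.999) and Clu (0.996). Cfb was most like Spidr (0.996), Nfil3 (0.996) and Cdkn1c (0.991). For the genes higher in PDGFR-β+ cells they were Npy1r (0.990), Cpeb1 (0.979) and Cthrc1 (0.977) for Cd55, and Rragd (0.993), Pno1 (0.993) and Esco2 (0.985) for Masp1.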

How the data were processed

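Bulk RNA-seq of 12 libraries in 4 groups was read from 2 tables of TPM values. Per the study's methods and the labels' processing notes, the authors aligned reads to mm10 with HISAT2 and GENCODE annotation, ran StringTie and ballgown, and deposited TPM with replicates kept apart; their own DESeq2 test of counts was not used here. TPM fixes each library's total, so abundant genes that rise lower the others, and it keeps no depth. All per-sample columns were used, and 2 SMC columns (1 Scr, 1 siKlf4) carry no replicate number. Values were analysed as log2(TPM + 1) with limma 3.58.1 in R 4.3.3 (lmFit, eBayes with a trend), two-sided, with Benjamini-Hochberg adjustment over all genes tested, a threshold of 0.05 and a minimum mean of 1 TPM. Each cell type was fitted alone, and the interaction and the Scr contrast came from a fit of all 12 libraries. An exact permutation test of 3 against 3, two-sided, cannot go below 0.1. The procedure was tested on simulated data. Members and gene lists were chosen with earlier results of these data known. Named were the 7 genes, Klf4, listed complement and inducer genes averaging 1 TPM or more in a cell type, and up to 3 genes most alike in pattern, less 2 listed genes that are not reported here and in no list count; the marker, C1q, receptor, Rtp4, Zbtb12 and Gm20547 rows and cytokines listed at 0 were named as checks after their values were seen. Of 52636 identifiers, 52403 were found in GENCODE M21 (GRCm38), 49035 with the same version; Masp1 was matched without its version. Single-cell data of the study were not analysed here. Alternatives were a pseudocount of 0.1, other filters, scaling, fits, a replicate block, added copies and leaving out libraries.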

Additional observations from a re-analysis of the deposited data

Results flagged for a closer look

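The results below are those for which the siKlf4 effect differed between SMCs and PDGFR-β+ cells, by the interaction term of limma with an adjusted p under 0.05. Values are the log2 fold change in SMCs minus that in PDGFR-β+ cells. Among the genes described, Cfb stood at -2.38 and Masp1 at 0.54. Among other complement genes, C1ra stood at -1.38, C1rb at -1.08, C1s1 at -0.77, C2 at -1.39 and Cr1l at 0.55. Among inducers, Irf1 stood at -1.57, Irf9 at -0.94, Stat2 at -1.74 and Stat3 at -0.67. Klf4 itself stood at 1.19, as its transcript fell further in PDGFR-β+ cells. For Cfb the effects had opposite signs and both passed the threshold. For Stat2 and Irf9 they had the same sign and both passed.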

How the results depend on the processing

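Counts of the 7 genes past the threshold ranged from 5 to 6 in SMCs, 2 to 4 in PDGFR-β+ cells and 2 to 3 for the interaction over all alternatives, and stayed at 6 for the Scr contrast. For other complement genes, a minimum of 5 TPM left 5 calls in SMCs and 1 in PDGFR-β+ cells because fewer genes were tested, and no filter on low values gave 6 in PDGFR-β+ cells (1 higher, 5 lower). Of 428 alternative values for single members, 404 kept direction and side of the threshold, 17 lost a call, 6 gained a call and 1 turned: the Cd55 difference between cell types, -0.27 to 0.0244 with single libraries left out, became 0.0244 without the unnumbered siKlf4 SMC library. Same-numbered PDGFR-β+ libraries did not deviate together (r = 0.0732, -0.0158 and 0.0043 over 13694 genes), and the 2 numbered SMC pairs had r of 0.185 and 0.199. The Scr and siKlf4 SMC libraries without a number deviated together (0.361), but no label pairs them. A term for that naming kept 6 of the 7 genes in SMCs and 2 for the interaction, gave 11 other complement genes in SMCs, and gained Stat3, Nfkb1 and Cd59b in SMCs (adjusted p = 0.0181, 0.0233 and 0.0481) and Nfkb1 and Lif for the interaction (0.0136 and 0.00236). With a replicate block for the number, which in SMCs leaves the 4 numbered libraries, 5 of the 7 genes passed in SMCs, 2 in PDGFR-β+ cells and 3 for the interaction (C3 added at 0.81), and 6 and 4 other complement genes; all-gene calls in SMCs were 1500 higher and 1353 lower, and Cd55 was lost in both cell types (adjusted p = 0.0657 and 0.0626). The causes were not tested. Without counts, depth and counting error are unknown, and low genes rest on 3 libraries alone.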
